A study of Homo sapiens with 8 samples.

Results

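The genes described here make the building blocks of DNA from pyrimidine and other ribonucleotides: RRM1, RRM2, RRM2B, TYMS, DUT, DCTD, DTYMK, CTPS1, NME1 and SAMHD1. They were listed by name and not by their measured values, although earlier results of these data were known when they were chosen. They are 10 of the 58051 genes in the count files. Of the 10, 9 had a mean normalized count above 5 and were tested, as were 7550 genes in all. The exception was RRM2B, with 0 to 2 counts in every sample.

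RNA was measured by sequencing the 3' ends of polyadenylated transcripts in MDA-MB-231 (MDA231) cells, a human breast cancer line of mesenchymal character. Parental cells, which carried no modification, gave 2 samples. SDHBKO cells, in which a TALEN nuclease pair cut exon 1 of SDHB and which were selected with hygromycin, gave 3 samples. SDHBKO SDHAlow cells, which carry the same knockout together with an shRNA against SDHA and were selected with puromycin, gave 3 samples. All cells were untreated, and both modified sublines lack SDHB, so SDHBKO SDHAlow differed from SDHBKO cells in the SDHA knockdown and in its selection. The labels of the SDHBKO samples name no empty vector, and they do not say whether a subline grew from 1 clone. The labels call the samples biological replicates without naming separate cultures, so p-values measure the spread between these samples, which may be technical.

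SDHA and SDHB are subunits of respiratory complex II, which oxidises succinate in the mitochondrial inner membrane. The study asked how cells behave when complex II is fully assembled, present only as an SDHA-containing remnant, or depleted of both, and pyrimidine supply was one of the processes it followed.

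Cells obtain the precursors of DNA mainly by reducing ribonucleoside diphosphates. Ribonucleotide reductase does this with a large subunit, RRM1, and a small radical-bearing subunit, RRM2 in dividing cells or RRM2B outside S phase and after DNA damage. Thymidylate is then made from dUMP by TYMS, with DUT and DCTD providing the dUMP and DTYMK phosphorylating the product. CTPS1 converts UTP to CTP, NME1 moves phosphate between nucleoside diphosphates and triphosphates, and SAMHD1 hydrolyses dNTPs. Many of these genes are transcribed most strongly around S phase.

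Between 773042 and 1427141 reads were counted on genes per sample, so 3 counts corresponded to 2.1 to 3.88 CPM (CPM is the usual library-scaled count, here with totals adjusted by TMM factors). SDHA stood at 82.8 ± 12.4 CPM (SD, n = 2) in parental, 144.5 ± 8.77 (n = 3) in SDHBKO and 13.0 ± 4.70 (n = 3) in SDHBKO SDHAlow cells, and fell by 3.46 on the log2 scale (SE 0.28, edgeR adjusted p = 1.16e-07) with the knockdown. SDHB had 0 to 4 counts in every sample, parental cells included, so its RNA could not check the knockout. Of the markers of the line, VIM (597 to 918 counts), CD44, KRT18, LGALS1, AXL and SPARC were detected in every sample. ESR1, PGR and KRT5 were at 0 throughout, ERBB2 had 15 to 25 counts, and CDH1 and EPCAM had at most 2. Of the markers of other cell types, PTPRC, CD3E and ALB were at 0 in every sample, PECAM1 had at most 2 counts and DES at most 1.

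The promoters of RRM2 and DTYMK are shown because these genes had the lowest unadjusted edgeR p of the 9 tested (0.0324 for DTYMK and 0.0737 for RRM2, in 1 comparison each), and because both carry more than 1 CCAAT box, the motif bound by the factor NF-Y. Each sequence runs from 250 bases before to 50 bases after the start of the gene in RefSeq (GRCh38.p14), RRM2 at chr2:10122489-10122788 on the plus strand and DTYMK at chr2:241686766-241687065 on the minus strand. Both RefSeq starts lie inside the GENCODE gene spans given below, so positions hold for the RefSeq start only. CCAAT is in capitals.
RRM2: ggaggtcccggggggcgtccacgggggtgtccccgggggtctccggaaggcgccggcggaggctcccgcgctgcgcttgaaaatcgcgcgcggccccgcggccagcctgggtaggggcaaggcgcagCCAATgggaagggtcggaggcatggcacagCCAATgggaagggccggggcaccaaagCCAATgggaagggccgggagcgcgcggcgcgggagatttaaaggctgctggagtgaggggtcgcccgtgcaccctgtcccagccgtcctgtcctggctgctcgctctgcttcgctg
DTYMK: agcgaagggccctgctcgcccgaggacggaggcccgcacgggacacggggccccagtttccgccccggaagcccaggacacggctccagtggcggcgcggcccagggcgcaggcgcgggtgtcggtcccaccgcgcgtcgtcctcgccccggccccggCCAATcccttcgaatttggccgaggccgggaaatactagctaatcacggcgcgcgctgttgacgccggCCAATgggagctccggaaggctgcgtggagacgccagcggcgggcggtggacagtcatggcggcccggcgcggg
The set of RefSeq promoters used here held 9 of the 10 genes and lacked RRM2B. CCAAT was searched on both strands and occurred in 5 of the 9, against 34.6% of all 35116 promoters of this length. RRM2 held 3 matches, at 123, 93 and 66 bases upstream of its start, and 3.26% of all promoters held 3 or more. DTYMK held 2 matches, at 92 and 24 bases upstream, and SAMHD1 held 2 at 49 and 38 bases upstream; 10.8% of all promoters held 2 or more. RRM1 held 1 match 28 bases upstream and NME1 held 1 at 203 bases. The letters TTTNGCGC, taken as an E2F motif and also searched on both strands, were in 0 of the 9 windows and in 1.79% of all promoters. Only exact matches to these letters were sought, so other forms of an E2F site were not covered. A match is a description of the letters only, and binding was not measured.

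No gene of the 10 passed the test in any comparison. In SDHBKO against parental cells, edgeR called 0 of the 9 genes tested, against 5.54% of all genes tested at an adjusted p below 0.1. In SDHBKO SDHAlow against SDHBKO cells it called 0 of 9, against 1.51% of all genes. In SDHBKO SDHAlow against parental cells it called 0 of 9, against 0.914%. At an unadjusted p below 0.05, edgeR gave 0, 1 and 0 of the 9 genes in this order, and 17.5%, 12.1% and 12.3% of all genes. DESeq2 also called 0 in each comparison, with an adjusted p for 8 of the 9 genes. Samples of the 2 groups did not overlap in CPM for 2, 1 and 2 of the 9 genes, against 37.9%, 17.4% and 30.7% of all genes tested.

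RRM1 (ENSG00000167325, chromosome 11, 4094707 to 4138932, plus strand, GRCh38) encodes the catalytic subunit of ribonucleotide reductase, which also binds its allosteric effectors. It measured 65.9 and 55.8 CPM in parental, 67.0, 86.7 and 48.6 CPM in SDHBKO, and 66.4, 38.1 and 59.1 CPM in SDHBKO SDHAlow replicates 1 to 3. The 3 groups overlapped throughout, and replicate 2 was the highest sample in SDHBKO and the lowest in SDHBKO SDHAlow cells. The fitted log2 fold changes were 0.14 (SE 0.31) for SDHBKO against parental, -0.33 (SE 0.28) for SDHBKO SDHAlow against SDHBKO and -0.18 (SE 0.31) for SDHBKO SDHAlow against parental cells, with edgeR adjusted p of 0.865, 0.679 and 0.86.

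RRM2 (ENSG00000171848, chromosome 2, 10120698 to 10211725, plus strand) encodes the small subunit that limits the enzyme in dividing cells and is destroyed after S phase. It measured 282.3 and 249.6 CPM in parental, 202.5, 211.2 and 216.9 CPM in SDHBKO, and 214.8, 193.25 and 201.7 CPM in SDHBKO SDHAlow cells. Both parental samples lay above all 6 samples without SDHB, and the 2 modified groups overlapped. The group means were 265.9 ± 23.1 (SD, n = 2), 210.2 ± 7.25 (n = 3) and 203.2 ± 10.9 CPM (n = 3). Against parental cells the log2 difference was -0.34 (SE 0.21, 95% interval -0.77 to 0.09) in SDHBKO and -0.39 (SE 0.21, interval -0.82 to 0.04) in SDHBKO SDHAlow cells. Neither passed the test, with edgeR adjusted p of 0.421 and 0.456. These comparisons share the 2 parental samples, so they are not independent of each other. Between the 2 modified groups the difference was -0.05 (SE 0.19, interval -0.44 to 0.34). In bulk RNA, fewer cells that transcribe RRM2 and less RRM2 RNA per cell cannot be told apart.

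RRM2B (ENSG00000048392, chromosome 8, 102204502 to 102238961, minus strand) encodes the p53-inducible small subunit. It had 1 and 0 counts in parental, 0, 2 and 1 in SDHBKO, and 0, 0 and 0 in SDHBKO SDHAlow cells. Every sample was below 3 counts, so no difference was detectable at this depth and no fold was computed.

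TYMS (ENSG00000176890, chromosome 18, 657653 to 673578, plus strand) encodes thymidylate synthase, the target of fluorouracil. It measured 195.5 and 160.6 CPM in parental, 142.3, 155.6 and 245.0 CPM in SDHBKO, and 229.3, 295.5 and 183.9 CPM in SDHBKO SDHAlow cells. The groups overlapped in every pair, with SDHBKO replicate 3 above both parental samples and the other SDHBKO samples below both. The log2 difference was 0.026 (SE 0.26) for SDHBKO against parental and 0.38 (SE 0.23, interval -0.10 to 0.87) for SDHBKO SDHAlow against SDHBKO cells, with edgeR adjusted p of 0.973 and 0.536. For SDHBKO SDHAlow against parental cells it was 0.41 (SE 0.26, adjusted p = 0.558). The last 300 exonic bases of TYMS are overlapped over all 300 bases by exons of ENOSF1 on the other strand, and the strand setting of the counting was not given in the sources used here, so the TYMS value is uncertain. ENOSF1 itself had 6 to 27 counts.

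DUT (ENSG00000128951, chromosome 15, 48331011 to 48343373, plus strand) encodes the dUTPase that keeps uracil out of DNA and yields dUMP. It measured 49.7 and 41.2 CPM in parental, 39.7, 78.9 and 39.9 CPM in SDHBKO, and 42.2, 38.1 and 54.6 CPM in SDHBKO SDHAlow cells. SDHBKO replicate 2 stood apart at 71 counts, and every other sample lay between 29 and 51 counts. The log2 differences were 0.22 (SE 0.34), -0.25 (SE 0.30) and -0.03 (SE 0.34) in the order of comparisons used for RRM1, with edgeR adjusted p of 0.803, 0.788 and 0.983. Without SDHBKO replicate 2, the first became -0.19 and the second 0.17.

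DCTD (ENSG00000129187, chromosome 4, 182890060 to 182917936, minus strand) encodes the deaminase that turns dCMP into dUMP. It measured 47.4 and 27.9 CPM in parental, 43.8, 44.5 and 35.6 CPM in SDHBKO, and 60.3, 41.8 and 62.4 CPM in SDHBKO SDHAlow cells. SDHBKO SDHAlow replicates 1 and 3 were the highest samples, and replicate 2 lay within the range of the other groups. The log2 differences were 0.12 (SE 0.34), 0.40 (SE 0.29) and 0.52 (SE 0.33, interval -0.17 to 1.20), with edgeR adjusted p of 0.902, 0.612 and 0.556.

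DTYMK (ENSG00000168393, chromosome 2, 241675747 to 241686944, minus strand) encodes thymidylate kinase, which takes dTMP to dTDP. It measured 194.4 and 244.3 CPM in parental, 201.1, 165.6 and 173.7 CPM in SDHBKO, and 223.3, 283.5 and 231.8 CPM in SDHBKO SDHAlow cells. All 3 SDHBKO SDHAlow samples lay above all 3 SDHBKO samples, and the parental samples spanned the gap between them. The means were 219.3 ± 35.3 (SD, n = 2), 180.2 ± 18.6 (n = 3) and 246.2 ± 32.6 CPM (n = 3). SDHBKO SDHAlow against SDHBKO cells gave a log2 difference of 0.46 (SE 0.20, 95% interval 0.04 to 0.87), with an unadjusted edgeR p of 0.0324 and an adjusted p of 0.361. It was the only interval among the 9 genes and 3 comparisons that did not include 0, and it did not pass the adjustment over all genes. Against parental cells the differences were -0.28 (SE 0.22, adjusted p = 0.547) in SDHBKO and 0.17 (SE 0.22, adjusted p = 0.801) in SDHBKO SDHAlow cells by edgeR.

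CTPS1 (ENSG00000171793, chromosome 1, 40979300 to 41012565, plus strand) encodes the CTP synthase on which proliferating lymphocytes depend. It measured 78.7 and 98.2 CPM in parental, 104.0, 86.7 and 85.25 CPM in SDHBKO, and 113.4, 105.2 and 74.7 CPM in SDHBKO SDHAlow cells. The groups overlapped in every pair, and both the highest and the lowest of the 8 samples belonged to SDHBKO SDHAlow cells. The log2 differences were 0.056 (SE 0.26, interval -0.49 to 0.60), 0.09 (SE 0.23, interval -0.38 to 0.57) and 0.15 (SE 0.26, interval -0.39 to 0.69). The edgeR adjusted p were 0.942, 0.904 and 0.861.

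NME1 (ENSG00000239672, chromosome 17, 51153559 to 51162428, plus strand) encodes a nucleoside diphosphate kinase. It measured 354.0 and 375.7 CPM in parental, 395.4, 294.6 and 317.3 CPM in SDHBKO, and 334.3, 308.15 and 288.6 CPM in SDHBKO SDHAlow cells. All 3 SDHBKO SDHAlow samples lay below both parental samples, while SDHBKO replicate 1 was the highest of all 8. The log2 differences were -0.12 (SE 0.21), -0.11 (SE 0.19) and -0.23 (SE 0.21, interval -0.67 to 0.20), with edgeR adjusted p of 0.824, 0.856 and 0.689. NME1 shares a locus with the NME1-NME2 readthrough gene, which had 0 counts, and its last 300 exonic bases are free of other exons. NME2, whose last 300 bases lie wholly within the readthrough gene on the same strand, had at most 1 count, so it was not measurable in these files.

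SAMHD1 (ENSG00000101347, chromosome 20, 36890229 to 36951893, minus strand) encodes the dNTP hydrolase that restricts viral replication in resting immune cells. It had 6 and 9 counts in parental, 0, 6 and 4 in SDHBKO, and 9, 8 and 10 in SDHBKO SDHAlow cells. In CPM these were 6.94 and 11.9, then 0, 6.67 and 4.32, then 10.9, 5.97 and 11.1. On this scale all SDHBKO samples were below both parental samples. SDHBKO replicate 2 and parental replicate 1 both had 6 counts, so library scaling alone separated them. The ranges of SDHBKO and SDHBKO SDHAlow cells overlapped. The log2 differences were -1.25 (SE 0.78, interval -2.87 to 0.36), 1.21 (SE 0.69, interval -0.23 to 2.66) and -0.04 (SE 0.69, interval -1.47 to 1.39). The edgeR adjusted p were 0.426, 0.503 and 0.988, and at these counts every interval reached beyond 2-fold.

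**Figure D1:**
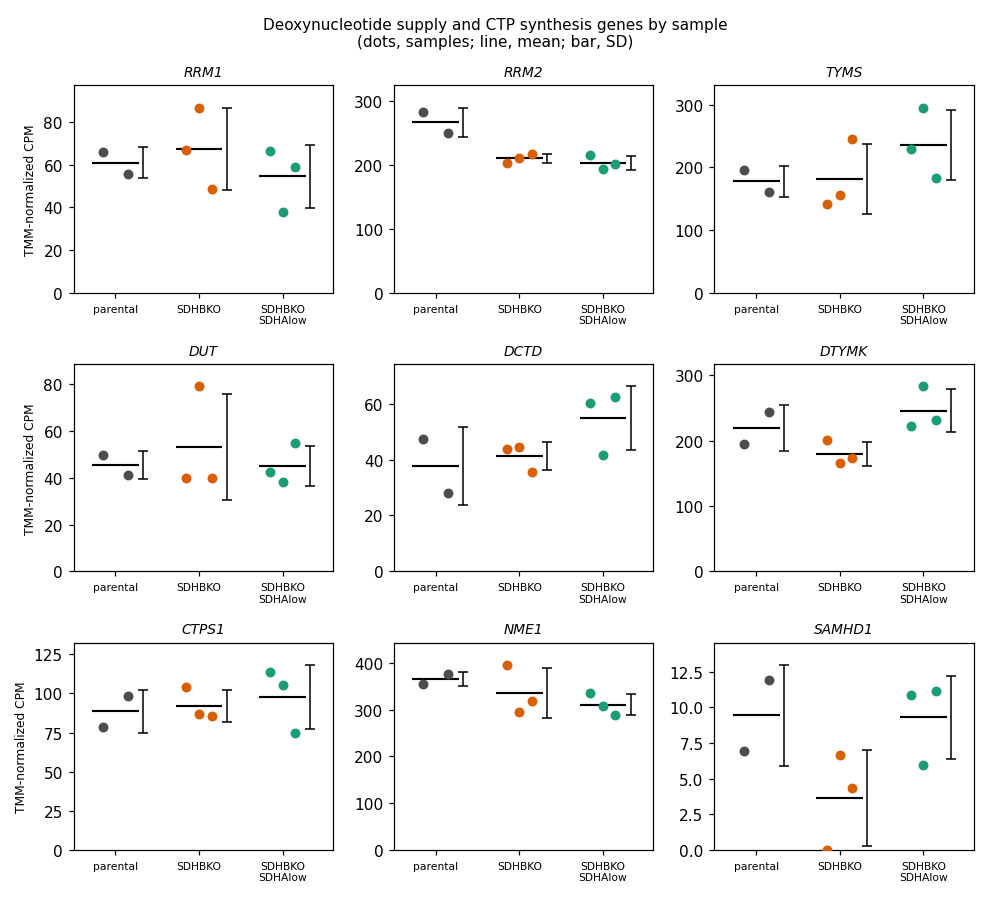
TMM-normalized CPM of 9 genes (vertical axes from 0, a separate scale for each gene) in parental, SDHBKO and SDHBKO SDHAlow cells. Dots are samples, horizontal lines group means and bars the SD. RRM2 is highest in both parental samples, all 3 SDHBKO SDHAlow samples of DTYMK lie above the SDHBKO samples, and most other groups overlap.

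The intervals bounded the differences of most of these genes. In SDHBKO against parental cells, the 95% intervals of 8 of the 9 genes lay within 2-fold in either direction, the exception being SAMHD1, against 31.7% of all genes tested. In SDHBKO SDHAlow against SDHBKO cells 8 of 9 lay within 2-fold, again all but SAMHD1, against 44.8%. In SDHBKO SDHAlow against parental cells 7 of 9 did, all but DCTD and SAMHD1, against 36.4%. Leaving SAMHD1 out, the fitted log2 differences ran from -0.34 to 0.22, from -0.33 to 0.46 and from -0.39 to 0.52. The median of the absolute log2 difference over the 9 genes was 0.14, 0.33 and 0.18, beside 0.39, 0.31 and 0.34 over all genes tested. The median interval width was 1.10, 0.97 and 1.10, beside 1.62, 1.42 and 1.60. Apart from SAMHD1, the 9 genes had at least 21 counts in every sample, whereas all genes tested reach down to a mean of 5. The genes were not matched for count, so these shares and medians do not show that the 9 genes were unusually stable. The smallest absolute log2 difference called among all genes was 0.62, 0.66 and 0.75, so the differences fitted for the genes other than SAMHD1 were smaller than any that the test called in these data. That limit depends on the number of samples and the threshold, and it does not show that these genes were unchanged.

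**Figure D2:**
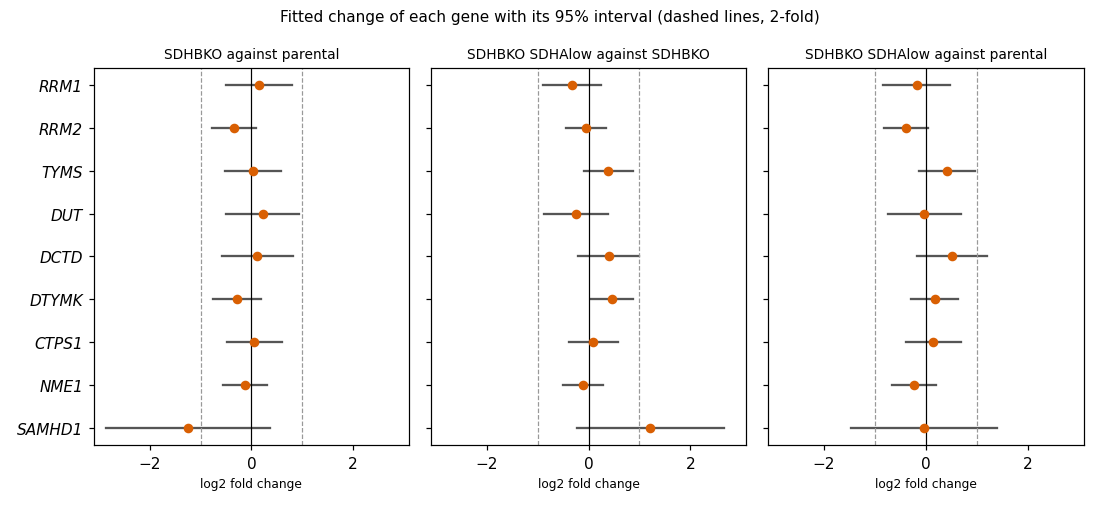
Fitted log2 fold change (horizontal axis) of each of 9 genes with its 95% interval, in the 3 comparisons. Dashed lines mark 2-fold; the intervals of SAMHD1 cross them in every panel, that of DCTD crosses in SDHBKO SDHAlow against parental cells, and only that of DTYMK in SDHBKO SDHAlow against SDHBKO cells excludes 0.

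**Figure D3:**
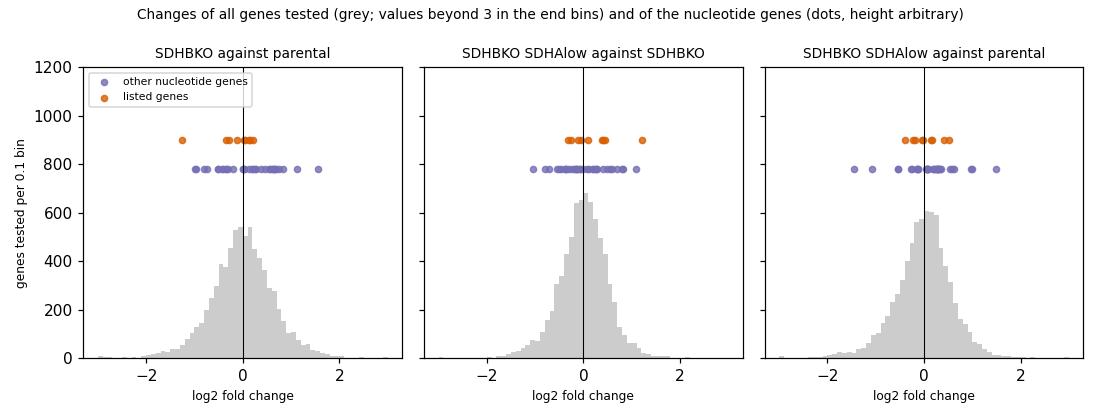
Log2 fold changes of all 7550 genes tested (grey histogram, number of genes per bin) with the 9 genes (upper dots) and 34 other nucleotide genes (lower dots), the height of dots being arbitrary. Apart from SAMHD1, the upper dots lie within -0.39 and 0.52 in all 3 panels.

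The wider pathway was followed with a list of 47 further genes, of which 34 were tested: kinases and CTP synthesis, electron donors of ribonucleotide reductase, the folate cycle of thymidylate synthesis, deoxynucleoside salvage, removal of damaged nucleotides, and regulators of ribonucleotide reductase. In SDHBKO against parental cells 1 of the 34 rose and 0 fell, against 5.54% of all genes called, and the median log2 difference was 0.16, beside -0.0007 over all genes. In SDHBKO SDHAlow against SDHBKO cells 2 fell and 0 rose, against 1.51% of all genes called, with a median of -0.07 beside 0.01. In SDHBKO SDHAlow against parental cells 0 of 34 were called by edgeR and 0 by DESeq2, against 0.914% of all genes by edgeR. The median was 0.20 beside 0.02. DESeq2 gave an adjusted p for only 19, 22 and 20 of the 34 genes in the 3 comparisons, so it could not call the others. At an unadjusted edgeR p below 0.05 there were 6, 6 and 1 of the 34 genes, against 17.5%, 12.1% and 12.3% of all genes.

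ITPA, the pyrophosphatase that removes ITP and dITP from the nucleotide pool, measured 201.3 and 277.4 CPM in parental, 548.7, 502.5 and 502.9 CPM in SDHBKO, and 280.0, 247.0 and 230.7 CPM in SDHBKO SDHAlow cells. All 3 SDHBKO samples stood above every other sample. ITPA rose by 1.11 on the log2 scale in SDHBKO against parental cells (SE 0.22, edgeR adjusted p = 0.0115). It fell by 1.04 in SDHBKO SDHAlow against SDHBKO cells (SE 0.19, adjusted p = 0.00875), and differed by 0.08 (SE 0.22, interval -0.37 to 0.53) between SDHBKO SDHAlow and parental cells. Both calls rest in part on the same 3 SDHBKO samples. The first was lost without parental replicate 1 (edgeR adjusted p = 0.418) and kept under the other 16 alternatives, and the second was kept under all 17.

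SHMT2, the mitochondrial serine hydroxymethyltransferase that supplies one-carbon units, measured 244.1 and 241.6 CPM in parental, 365.3, 339.1 and 427.3 CPM in SDHBKO, and 228.1, 231.3 and 193.9 CPM in SDHBKO SDHAlow cells. The SDHBKO samples were again above all others. SHMT2 fell by 0.79 in SDHBKO SDHAlow against SDHBKO cells (SE 0.19, edgeR adjusted p = 0.0463), while the difference of 0.64 (SE 0.21) between SDHBKO and parental cells had an adjusted p of 0.112. The fall passed in 8 of 17 alternatives, and its size ran from -0.86 to -0.70 over all 17. The call was lost on leaving out either parental sample, SDHBKO replicate 1 or 3, or SDHBKO SDHAlow replicate 1 or 3. It was also lost with only the 2 groups in the fit and with the replicate block in either numbering (edgeR adjusted p = 0.111, 0.152 and 0.154), and the highest adjusted p over the alternatives was 0.257. Of the last 300 exonic bases of SHMT2, 33 are overlapped by NDUFA4L2 on the other strand.

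NME4, a mitochondrial nucleoside diphosphate kinase, was singled out after its values were seen, because DESeq2 called it, together with SHMT2 and ITPA, in SDHBKO against parental cells. It measured 129.6 and 128.8 CPM in parental, 260.0, 219.0 and 172.7 CPM in SDHBKO, and 159.3, 101.5 and 140.4 CPM in SDHBKO SDHAlow cells. By edgeR the differences were 0.75 (SE 0.25, adjusted p = 0.115) and -0.71 (SE 0.22, adjusted p = 0.175) in the first and second comparison.

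**Figure D4:**
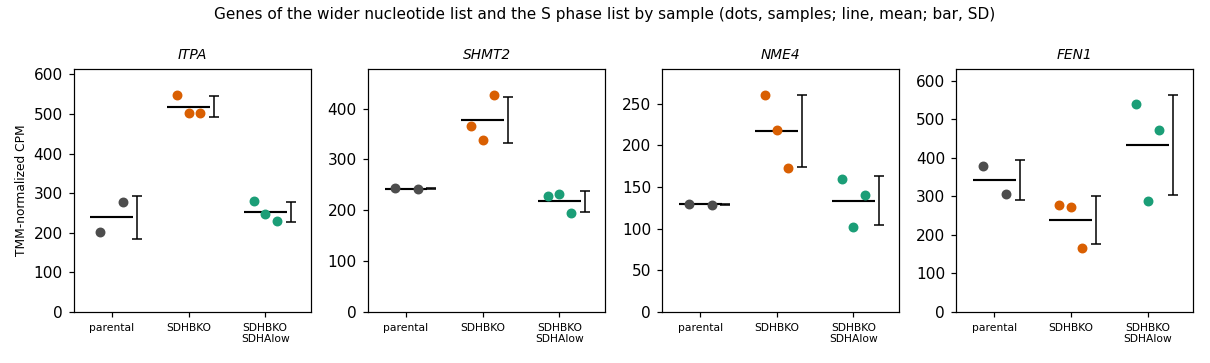
TMM-normalized CPM (vertical axes from 0) of ITPA, SHMT2, NME4 and FEN1 in the 3 groups. Dots are samples, horizontal lines means and bars the SD; the 3 SDHBKO samples are the highest for ITPA, SHMT2 and NME4, and the 3 lowest for FEN1.

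Genes of the S phase programme were set beside the members because RRM1, RRM2 and TYMS are transcribed with it. Of 24 listed, 21 were tested, and edgeR called 0 in each of the 3 comparisons, against 5.54%, 1.51% and 0.914% of all genes. At an unadjusted edgeR p below 0.05 there were 3, 4 and 3 of the 21 genes, against 17.5%, 12.1% and 12.3% of all genes. DESeq2 called 0, 1 and 0, with an adjusted p for only 13, 14 and 13 of the 21 genes. The median log2 difference of the 21 genes was -0.24 in SDHBKO against parental cells, then 0.09 and -0.04. Positive and negative genes of the 21 numbered 7 and 14, then 15 and 6, then 9 and 12. Over all genes tested they numbered 3766 and 3784, then 3856 and 3694, then 3882 and 3668. The gene that DESeq2 called was FEN1, the flap endonuclease of lagging-strand synthesis, named here after its values were seen. It measured 378.3 and 305.3 CPM in parental, 277.8, 272.4 and 166.2 CPM in SDHBKO, and 539.4, 288.0 and 472.5 CPM in SDHBKO SDHAlow cells, and by edgeR its difference between SDHBKO SDHAlow and SDHBKO cells was 0.86 (SE 0.24, adjusted p = 0.107).

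The genes whose pattern over the 8 samples was nearest to that of 3 members were found from the root mean square difference of log2 CPM, each gene being centred on its own mean. For RRM2, whose own root mean square spread was 0.17, they were TRIM28 (0.097), ORC6 (0.10) and SLIRP (0.11). For TYMS, with a spread of 0.34, they were UBL7 (0.12), AMDHD2 (0.14) and RAB1B (0.14). For CTPS1, with a spread of 0.20, they were FAM234A (0.096), REPS1 (0.10) and TBL2 (0.10). These values are descriptions over 8 samples that share library depth and group, and carry no test.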

How the data were processed

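RNA from 8 samples of MDA231 sublines was analysed. Per the labels and the study's methods, the authors trimmed reads with Trimmomatic, removed ribosomal and mitochondrial reads with Sortmerna, and aligned and counted reads per gene with STAR 2.5.2b on GRCh38, annotation release 87. The raw counts as deposited entered every test. A deposited set of normalized signal values was proportional to the raw counts by a constant factor per sample, but with SDHBKO replicates 1 and 3 exchanged. That factor was not compared with a DESeq2 size factor, and the set was used for this check only. Summary lines that name no gene held 18.8% to 28.6% of all reads in the files and were left out.

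Counts of genes with a DESeq2 BaseMean above 5 (7550 of 58051) were fitted with edgeR 4.0.16 in R 4.3.3 (TMM factors, quasi-likelihood F test, 8 samples and 3 groups in 1 fit, 5 residual degrees of freedom, biological coefficient of variation 21.5%). Benjamini-Hochberg adjustment ran over all genes tested, and an adjusted p below 0.1 was a call. The SE is the log2 fold change divided by the square root of F. Intervals and p-values used the residual degrees of freedom plus those borrowed from the spread of other genes (median 16.6). With the residual ones alone, the intervals would be wider. CPM used TMM-scaled library sizes, and log2 CPM a prior count of 2. Alternatives were DESeq2 1.42.0, 2 other normalizations, 2 other filters, an adjusted p of 0.05, fits of 2 groups, the replicate block, and each sample left out. The code was tested on simulated data.

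Members and lists were chosen with earlier results of these data known. Named genes were all members, every gene of the wider and S phase lists called in at least 1 comparison, the 2 targeted genes and the 3 nearest genes of RRM2, TYMS and CTPS1. Markers of the line and of other cell types were named as a check, and genes overlapping a named gene, with NME2, to show where counts are uncertain. NME4 and FEN1 were named after their values were seen. Symbols and positions came from GENCODE release 44 (56948 of 58051 identifiers matched) and promoters from RefSeq. The strand setting of the counting was not given in the sources used here. The chi-square per degree of freedom between samples of 1 group was 2.03 to 9.95, above sampling noise in every pair. Intervals on fitted changes cover the spread between samples, and a floor of 3 counts covers counting error only.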

Additional observations from a re-analysis of the deposited data

How the results depend on the processing

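Of the 10 genes, 0 were called in each comparison under all 17 alternatives. Of 455 fitted values, 435 kept their sign, 20 changed it and 0 crossed the threshold, the smallest adjusted p being 0.286. The alternative at an adjusted p of 0.05 reuses the main fit with a stricter threshold, so it could change no sign and add no call. Over alternatives, RRM2 ran from -0.43 to -0.25 in SDHBKO and from -0.49 to -0.30 in SDHBKO SDHAlow against parental cells. DTYMK ran from 0.32 to 0.54 in SDHBKO SDHAlow against SDHBKO cells. For SDHBKO against parental cells, TYMS was -0.0235 with total counts only and -0.0385 with the replicate block. SAMHD1 in SDHBKO SDHAlow against parental cells was 0.13 with the replicate block and exchanged SDHBKO numbers. Leaving out 1 sample at a time, values for SDHBKO against parental cells ran from -0.084 to 0.35 (RRM1), -0.25 to 0.18 (TYMS), -0.19 to 0.40 (DUT), -0.21 to 0.56 (DCTD) and -0.10 to 0.22 (CTPS1). For SDHBKO SDHAlow against SDHBKO cells they ran from -0.43 to 0.17 (DUT), -0.019 to 0.25 (CTPS1) and -0.20 to 0.019 (NME1). For SDHBKO SDHAlow against parental cells they ran from -0.35 to 0.033 (RRM1), -0.19 to 0.11 (DUT), -0.011 to 0.31 (CTPS1) and -0.39 to 0.37 (SAMHD1).

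Of the wider list, SDHBKO against parental cells gave 3 calls by DESeq2 and 3 with only the 2 groups in the fit, and 0 to 5 on leaving out 1 sample, with 0 without parental replicate 1, 2 without SDHBKO replicate 2 and 5 without SDHBKO SDHAlow replicate 2. SDHBKO SDHAlow against SDHBKO cells gave 1 call with 2 groups only, 1 with the replicate block, 1 with the block and exchanged numbers, and 1 to 3 on leaving out 1 sample. The S phase list gave 1 call in this comparison by DESeq2 and 1 without a filter, and 0 to 1 on leaving out 1 sample, as it did for SDHBKO against parental cells; both calls of 1 came without SDHBKO SDHAlow replicate 2. Over all genes, calls in SDHBKO against parental cells went from 418 to 0 without parental replicate 1 and to 846 without SDHBKO SDHAlow replicate 2, the deepest sample, without which the other comparisons went from 114 to 375 and from 69 to 173. The cause was not tested.

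Samples with the same replicate number did not deviate together (mean correlation -0.070 over 7 pairs, -0.270 to 0.093). Pairs with other numbers had a mean of 0.035 (14 pairs, -0.145 to 0.269). No sign of pairing was seen, but the check cannot exclude it. Deviations were taken from group means, so those of the 2 parental samples mirror each other. With the replicate number as a block, 199, 59 and 12 genes were called in the 3 comparisons, beside 418, 114 and 69 without it. Without a filter the last count was 152, with an adjusted p of 0.05 the counts were 171, 64 and 13, and with only the 2 groups compared they were 777, 64 and 7. Depth limited SAMHD1 and RRM2B, which had at most 10 counts in any sample. With 2 parental samples, leaving 1 out assumes that the other varies like the remaining groups.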
